A study of Mus musculus with 12 samples.

Results

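Traj52, Traj50, Traj49, Traj48, Traj47 and Traj45 are 6 joining (J) gene segments of the mouse T cell receptor alpha locus (Tcra) that surround and follow the promoter lying at Traj49. They were taken as the columns TRAJ52, TRAJ50, TRAJ49, TRAJ48, TRAJ47 and TRAJ45, 6 of the 43 Traj columns that all 12 repertoire tables list. The share of a segment was its column sum over all variable (Trav) segments, divided by the table's own total and given as a percent. The 6 segments were chosen by name and not by a measured value, but with earlier results of these data already known.

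The libraries came from double-positive (DP) thymocytes, the CD4 and CD8 bearing cells in which Tcra is assembled, sorted without surface CD3e so that positively selected cells were left out. DPASE knockout (KO) libraries came from mice labelled homozygous DPASEKO, and wild-type (WT) libraries from mice labelled homozygous WT. The labels do not expand DPASE; the series title ties it to expression of the recombinase genes Rag1 and Rag2. All mice of both genotypes were aged 4 to 6 weeks, were C57BL/6J with a TcrdCreER allele of strain 129 origin at Tcra-Tcrd, and carried a ZsGreen reporter at Rosa26. CreER is a Cre recombinase that acts once tamoxifen is given, here expressed from the Tcrd gene. The labels disagree on reporter dose, giving Rosa26ZsG/+ in one field and Rosa26ZsG/ZsG in another. In the 24 h and 48 h groups, ZsGreen-positive cells were taken 24 h or 48 h after an intraperitoneal dose of 1 mg tamoxifen. In the steady-state groups all preselection DP cells were taken and no tamoxifen is recorded. Each of the 6 groups (KO and WT at each of the 3 samplings) held 2 libraries, made by 5' template-switch amplification of Tcra transcripts with a primer in the constant gene Trac. The labels mention groups of 2 mice without saying that each library was its own mouse, so p-values measure how far replicate libraries spread, and that spread may be technical.

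A functional Tcra gene forms when the RAG1/RAG2 recombinase joins 1 Trav segment to 1 Traj segment. Rearrangement begins at the 5' end of the Traj array, next to the Trav segments, where the TEA promoter and the Traj49 promoter open chromatin over the first Traj segments used. A later round of joining on the same chromosome uses a Trav farther out and a Traj farther in, deleting the first product, so that usage spreads toward 3' Traj segments and distal Trav segments as DP cells age. Traj58 to Traj53 are the segments nearest to TEA, and the 6 segments described here come next. Promoter activity itself was not measured in these libraries.

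In GRCm38 (GENCODE release M21 annotation) the 6 segments span chr14:54165316-54172890 on the plus strand, 7.58 kb of a Traj array that runs 60.6 kb from the start of Traj58 to the end of Traj2. Traj52 starts 8.04 kb after the start of Traj58, and the end of Traj45 lies 47.6 kb before Trac. Each is a single short exon. Relative to the start of Traj49, Traj52 starts at -3370 and Traj50 at -1096, so both lie upstream of it. Traj48, Traj47 and Traj45 start at 1122, 3114 and 4142 bases, downstream of it. Traj51, annotated as a pseudogene, and Traj46 lie between members and have no column in the tables. The 6 germline sequences are shown because these bases tell one Traj segment from another in a transcript. Capitals mark a match to TTTGGN followed after any 3 bases by GGN, the codons for the conserved Phe-Gly-X-Gly turn of a J segment.
Traj52: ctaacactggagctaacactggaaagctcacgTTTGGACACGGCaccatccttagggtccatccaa
Traj50: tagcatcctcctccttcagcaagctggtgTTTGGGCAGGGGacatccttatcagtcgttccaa
Traj49: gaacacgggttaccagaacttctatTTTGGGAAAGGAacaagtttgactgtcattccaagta
Traj48: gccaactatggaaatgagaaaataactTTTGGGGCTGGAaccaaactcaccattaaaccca
Traj47: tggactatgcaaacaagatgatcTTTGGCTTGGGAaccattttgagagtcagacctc
Traj45: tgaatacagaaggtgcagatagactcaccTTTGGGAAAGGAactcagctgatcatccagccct

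The motif was searched on the coding strand, and it was found in 6 of 6 members and in 33 of all 43 Traj segments (76.7%). The members were 57 to 66 bases long, the same limits as over all 43 segments. They differed from each other by 26 to 35 single-base edits, and from any other of the 43 Traj segments by at least 21, so none has a near-identical copy among them with which it could share reads. By start, in GRCm38, Traj52 is at chr14:54165316-54165381, Traj50 at chr14:54167590-54167652, Traj49 at chr14:54168686-54168747, Traj48 at chr14:54169808-54169868, Traj47 at chr14:54171800-54171856 and Traj45 at chr14:54172828-54172890.

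The tables hold fractions with no read counts, so the depth is unknown and no counting interval could be given. In 8 tables the fractions summed to 0.995 to 0.998, and 0.602% to 3.61% of the Trav pairs of the members stood at 0. The other 4 tables, replicate 2 of KO and of WT at 24 h and at 48 h, summed to 1.97 to 1.99, and 18.1% to 41.4% of member pairs stood at 0. These 4 also stood apart in the Trav partners of the members. Trav15-2-dv6-2 made up 9.13% to 24.3% of the members' summed share in these 4, whereas its range in the other 8 was 0.651% to 1.00%. Trav6-6 made up 0.169% to 0.546% in these 4, whereas its range in the other 8 was 2.18% to 3.23%. The part of this in the results was not tested, and results at 24 h and 48 h are given with and without these 4 tables. Without them 1 library is left in each of those groups, which is then assumed to vary like the steady-state libraries. Over all 12 libraries the median log2 deviation of a segment from its group mean was 0.14 at 24 h. It was 0.0805 at 48 h and 0.0719 at steady state. At 24 h, p-values from the 8 tables thus rest on a smaller spread than the 24 h libraries showed. The chains of other cells that the sort could have held were rare in every library, at most 0.0462% for Trav11-Traj18 of invariant natural killer T cells and at most 0.0503% for Trav1-Traj33 of mucosal-associated invariant T cells.

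Together the 6 segments are 14.0% of the Traj columns. Their part of the repertoire was close to that in WT replicate 2 at steady state (14.0%) and WT replicate 1 at 48 h (14.8%). In the other libraries it was larger, and it was largest at 24 h. At steady state their summed share was 21.6% and 19.3% in the KO libraries, against 15.6% and 14.0% in WT. At 24 h it was 36.0% and 35.2% in KO, against 29.4% and 32.4% in WT. At 48 h it was 24.2% in both KO libraries, against 14.8% and 16.6% in WT. At each sampling both KO libraries lay above both WT libraries, by 5.63 percentage points at steady state (pooled SD 1.37), 4.69 points at 24 h (pooled SD 1.56) and 8.54 points at 48 h (pooled SD 0.912). These sums were not tested. From the 8 tables alone the differences at 24 h and 48 h were 6.60 and 9.46 points, between single libraries.

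Among the 6, Traj49 had the highest share in 10 of 12 libraries. In the other 2, both KO libraries at 24 h, Traj52 was highest and Traj49 next. Traj47 was the lowest member in 12 of 12 libraries. Its share was 1.01% to 2.44%, and among all 43 segments it placed between 17 and 40. The order in between changed with the group. In KO at steady state Traj52, Traj45, Traj48 and Traj50 followed Traj49, and each overlapped with the next in range. In WT at steady state the order was Traj49, Traj48, Traj45, Traj52, Traj50, in which Traj48 overlapped with Traj45, and Traj45 with Traj52. Traj49 did not overlap with the segment next below it in KO at steady state, KO at 48 h and WT at steady state, and it overlapped with Traj48 in WT at 24 h and at 48 h.

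**Figure D1:**
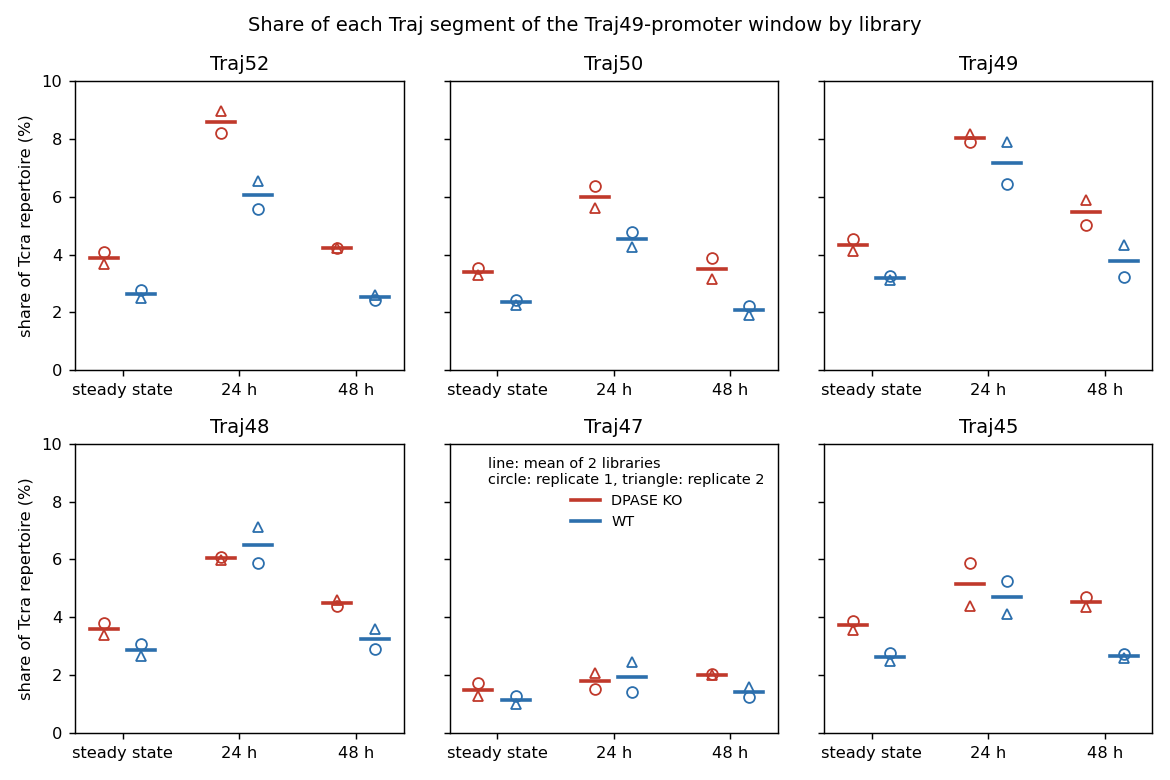
Share of the Tcra repertoire (%, y axis) of each of the 6 segments at steady state, 24 h and 48 h (x axis). Points are libraries (circle replicate 1, triangle replicate 2; KO red, WT blue) and lines are means of 2. At 48 h both KO libraries lie above both WT libraries for every one of the 6 segments, and at 24 h they do so for Traj52 and Traj50 alone.

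The KO against WT comparison at steady state asks how the whole preselection DP pool used these segments without DPASE. In this pool Traj52 and Traj50, the members 5' of Traj49, rose in KO cells, and the other 4 members were 0.33 to 0.50 higher on the log2 scale without passing the test over all 12 libraries. Each difference is a limma estimate on log2(percent + 0.01) with its SE, and adjusted p-values are Benjamini-Hochberg values over all 43 segments. Members passed in 2 of 6 cases, both higher, where 9.30% of all 43 segments were called higher. The median log2 fold change was 0.47 over the 6 and 0.04 over the 43. Of Traj58 to Traj53 1 of 4 was called higher (median 0.45), and of Traj44 to Traj39 1 of 5 (median 0.38).

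Traj52, the most 5' member, held 4.08% and 3.66% in the KO libraries, against 2.76% and 2.48% in WT. The groups did not overlap, and Traj52 rose by 0.56 ± 0.13 (limma, adjusted p = 0.0119). Traj50 held 3.54% and 3.28% in KO, against 2.44% and 2.26% in WT. It too was free of overlap and rose by 0.53 ± 0.15 (limma, adjusted p = 0.0249). Traj49, the segment that gives the promoter its name, held 4.53% and 4.11% in KO, against 3.26% and 3.12% in WT. Both KO libraries lay above both WT libraries, with a difference of 0.44 ± 0.17 (limma, adjusted p = 0.0798). Traj48, the first segment 3' of Traj49, held 3.80% and 3.40% in KO, against 3.06% and 2.64% in WT, again without overlap, for a difference of 0.33 ± 0.15 (limma, adjusted p = 0.115). Traj47 held 1.73% and 1.26% in KO, against 1.27% and 1.01% in WT. The lower KO library fell within the WT range, and the difference was 0.39 ± 0.28 (limma, adjusted p = 0.282). Traj45, the most 3' member, held 3.87% and 3.57% in KO, against 2.76% and 2.49% in WT. The groups did not overlap, and the difference was 0.50 ± 0.17 (limma, adjusted p = 0.0532).

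Both KO libraries exceeded both WT libraries for 5 of 6 members, beside 46.5% of all 43 segments. Replicate 1 was above replicate 2 within KO and within WT for all 6 members, and the deviations of same-numbered KO and WT libraries correlated at 0.948 over the 43 segments. With the replicate number as a block, 6 of 6 members rose, Traj49 with limma adjusted p = 0.00951, Traj48 with 0.0331, Traj47 with 0.0418 and Traj45 with 0.00198 (34.9% of all segments were called higher). The 4 steady-state libraries fitted alone also gave 6 of 6, with limma adjusted p-values of 0.000211 for Traj52 to 0.0196 for Traj48, and again 34.9% of all segments called higher. The calls over all 12 libraries rested on single libraries: that of Traj52 was lost without WT replicate 2 (0.48, limma adjusted p = 0.136) or KO replicate 1 (0.48, 0.135), and that of Traj50 without any 1 of the 4 (limma adjusted p = 0.0761 to 0.199).

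At 24 h, in cells labelled shortly before, the test called, of the 6 members, those 5' of Traj49 alone. Outside the window it called 4 of 4 segments of Traj58 to Traj53 higher (median log2 fold change 0.67). Of Traj44 to Traj39 it called 1 of 5 lower (median -0.27). Traj52 and Traj50 rose in KO cells, while Traj49 and the 3 members 3' of it differed by -0.10 to 0.17 on the log2 scale and did not pass; whether the 5' members differed from these 4 was not tested. Members passed in 2 of 6 cases, both higher, where 14.0% of all segments were called higher and 58.1% lower. The median log2 fold change was 0.15 over the 6 and -0.66 over the 43.

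Traj52 held 8.21% and 8.95% in KO, against 5.58% and 6.55% in WT. The groups did not overlap, and Traj52 rose by 0.50 ± 0.13 (limma, adjusted p = 0.00713). Traj50 held 6.39% and 5.62% in KO, against 4.80% and 4.27% in WT. It did not overlap either and rose by 0.41 ± 0.15 (limma, adjusted p = 0.0356). Traj49 held 7.88% and 8.17% in KO, against 6.44% and 7.89% in WT. The ranges overlapped, with a difference of 0.17 ± 0.17 (limma, adjusted p = 0.370, 95% interval -0.21 to 0.55). Traj48 held 6.10% and 5.99% in KO, against 5.88% and 7.11% in WT. Both KO values fell within the WT range, with a difference of -0.10 ± 0.15 (limma, adjusted p = 0.553, 95% interval -0.44 to 0.25). Traj47 held 1.50% and 2.06% in KO, against 1.41% and 2.44% in WT, so the KO values again lay within the WT range (-0.07 ± 0.28, limma adjusted p = 0.794). Traj45 held 5.88% and 4.39% in KO, against 5.26% and 4.12% in WT, ranges that overlapped (0.12 ± 0.17, limma adjusted p = 0.508).

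From the 8 tables alone Traj52 and Traj50 were again the 2 members called (0.56 and 0.41, limma adjusted p = 0.00523 and 0.0372; 14.0% of all segments called higher), and Traj49 differed by 0.29 (limma adjusted p = 0.145). The 4 libraries at 24 h fitted alone called no member (limma adjusted p = 0.107 for Traj52 and 0.180 for Traj50), beside 46.5% of all segments. No member had an unadjusted p under 0.05 in this fit, beside 23 of all 43 segments. Without WT replicate 1 at 24 h Traj52 was 0.39 higher and Traj50 0.49 higher, and neither kept its call. Traj50 also lost its call without WT replicate 2 at 24 h (0.32) or KO replicate 1 at 24 h (0.31). The same held without any single steady-state library, where its estimate stayed at 0.41.

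At 48 h the rise reached both ends of the window and segments on both sides of it. Of Traj44 to Traj39, 5 of 5 segments were called higher (median log2 fold change 0.60), and of Traj58 to Traj53 2 of 4 (median 0.37). Traj52, Traj50, Traj49, Traj48 and Traj45 rose in KO cells, and Traj47 was 0.52 higher without passing. Members passed in 5 of 6 cases, where 27.9% of all 43 segments were called higher. The median log2 fold change was 0.64 over the 6 and -0.04 over the 43. Both KO libraries exceeded both WT libraries for 6 of 6 members, beside 37.2% of all segments.

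Traj52 held 4.23% and 4.22% in KO, against 2.44% and 2.61% in WT, and rose by 0.74 ± 0.13 (limma, adjusted p = 0.00106). Traj50 held 3.88% and 3.14% in KO, against 2.23% and 1.91% in WT, and rose by 0.76 ± 0.15 (limma, adjusted p = 0.00218). Over all 12 libraries the members 5' of Traj49 were therefore called higher at all 3 samplings, though at steady state and 24 h these calls rested on single libraries. Traj49 held 5.03% and 5.88% in KO, against 3.24% and 4.31% in WT, and rose by 0.54 ± 0.17 (limma, adjusted p = 0.0197). Traj48 held 4.37% and 4.61% in KO, against 2.91% and 3.59% in WT, and rose by 0.47 ± 0.15 (limma, adjusted p = 0.0211). Replicate 2 was above replicate 1 for these 2 segments in both genotypes. Traj47 held 2.04% and 2.00% in KO, against 1.24% and 1.59% in WT, a difference of 0.52 ± 0.28 (limma, adjusted p = 0.122, 95% interval -0.10 to 1.14). Traj45 held 4.69% and 4.37% in KO, against 2.71% and 2.60% in WT, and rose by 0.77 ± 0.17 (limma, adjusted p = 0.00404). Traj45 had the largest estimate of the 6 at this time, at the other end of the window from Traj52.

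With the replicate block Traj47 was called as well (limma, adjusted p = 0.0108; 32.6% of all segments called higher). From the 8 tables alone all 6 were called (again beside 32.6%), with log2 fold changes of 0.59 for Traj48 to 0.79 for Traj50 (limma adjusted p of 0.00343 and 0.000140). The call of Traj49 was lost without WT replicate 1 at 48 h (0.33, limma adjusted p = 0.158) or KO replicate 2 (0.43, 0.121), and that of Traj48 without WT replicate 1 (0.32, limma adjusted p = 0.160), KO replicate 1 (0.51, 0.0629) or KO replicate 2 (0.44, 0.102).

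Averaged over the 3 samplings, KO exceeded WT by 0.60 ± 0.08 for Traj52 (limma, adjusted p = 7.67e-05), 0.57 ± 0.09 for Traj50 (0.000338), 0.38 ± 0.10 for Traj49 (0.00546), 0.24 ± 0.09 for Traj48 (0.0329) and 0.46 ± 0.10 for Traj45 (0.00217), so 5 of 6 members rose, where 27.9% of all segments were called higher. Traj47 differed by 0.28 ± 0.16 (limma, adjusted p = 0.125; 0.0123 with the replicate block, which called 32.6% of all segments higher). The call of Traj48 was lost in turn without any 1 of 6 libraries (limma adjusted p = 0.0537 to 0.0976).

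**Figure D2:**
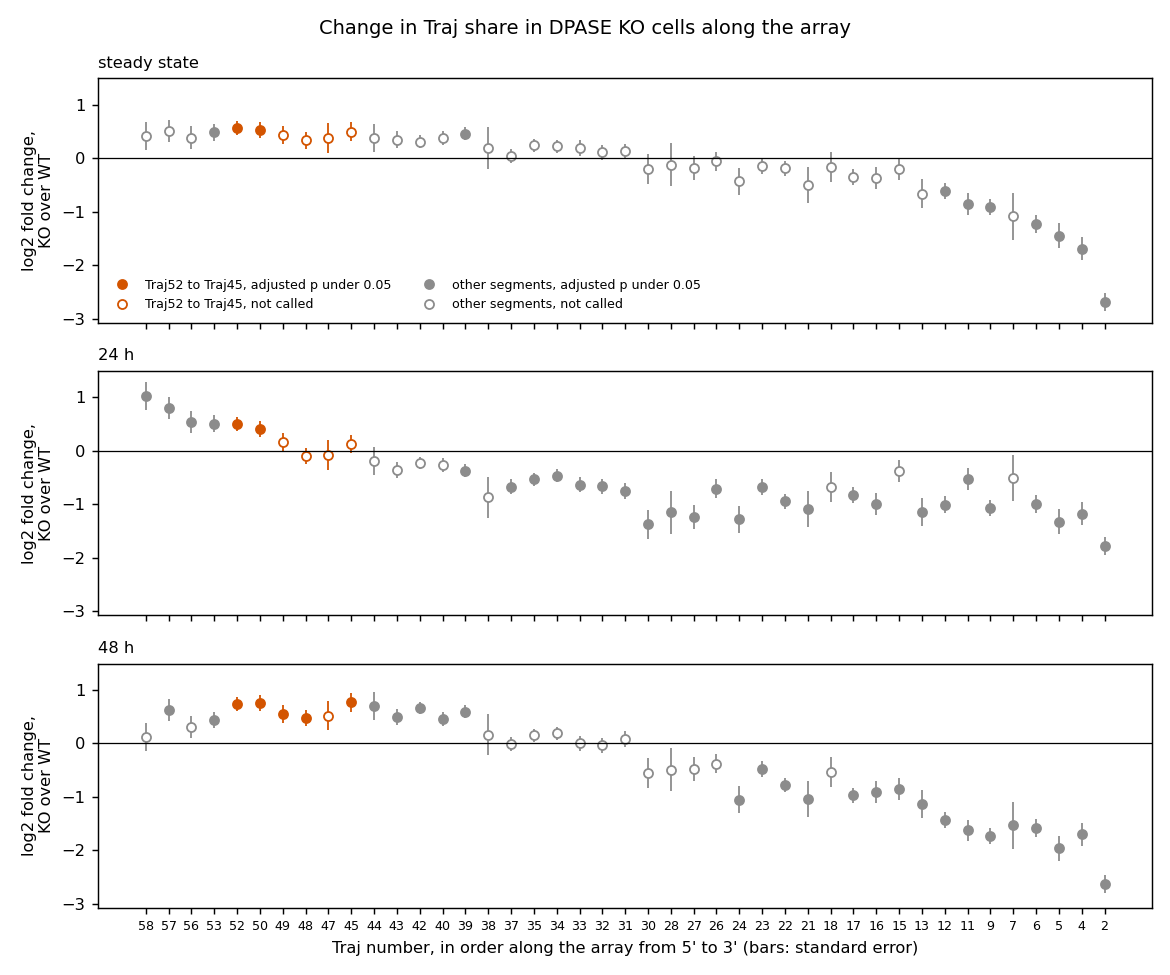
Log2 fold change of KO over WT (y axis, bars SE from limma) for the 43 Traj segments in their order from 5' to 3' (x axis), with the 3 samplings from top to bottom. The 6 segments, in orange, lie above 0 in the steady-state and 48 h panels, whereas the 24 h values run from 0.50 at Traj52 to about 0, where the profile crosses it.

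Shares of 1 table sum to a whole, so a rise in some segments goes with a fall in others. When each library's mean log2 share over the 43 segments was subtracted, the median over all segments moved up by 0.15 for steady state, 0.53 for 24 h and 0.35 for 48 h. On this centred scale 4 members were called at 24 h, Traj52 (1.04, limma adjusted p = 0.00138), Traj50 (0.94, 0.00138), Traj49 (0.70, 0.0217) and Traj45 (0.66, 0.00398), where 18.6% of all segments were called higher. Traj48 and Traj47 changed sign on it, to 0.44 and 0.46 (limma adjusted p = 0.0779 and 0.287). At steady state 4 members were called on the centred scale and at 48 h 6 of 6, where 25.6% and 44.2% of all segments were called higher.

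Between 24 h and 48 h after tamoxifen, most of these segments lost share in both genotypes. In KO cells Traj52, Traj50, Traj49 and Traj48 fell by 1.02, 0.78, 0.56 and 0.43 on the log2 scale (limma adjusted p = 6.11e-05, 0.000716, 0.0101 and 0.0236). The 4 calls compare with 18.6% of all segments called lower and 67.4% called higher. Traj45 held 5.88% and 4.39% at 24 h in KO and 4.69% and 4.37% at 48 h, ranges that overlapped (-0.17 ± 0.17, limma adjusted p = 0.362). Traj47 held 1.50% and 2.06% at 24 h and 2.04% and 2.00% at 48 h (0.19 ± 0.28, limma adjusted p = 0.502). The median change was -0.49 over the 6 and 1.26 over the 43. From the 8 tables alone the same 4 members fell, and Traj47 rose by 0.43 (limma, adjusted p = 0.0242), where 18.6% of all segments were called lower and 69.8% higher. The fall of Traj49 was lost without KO replicate 1 at 48 h (-0.45, limma adjusted p = 0.0784), and that of Traj48 without any 1 of the 4 KO libraries (limma adjusted p = 0.0550 to 0.103).

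In WT cells 5 of 6 members fell between 24 h and 48 h, where 25.6% of all segments were called lower. Traj52, Traj50 and Traj49 fell by 1.26, 1.13 and 0.93 on the log2 scale (limma adjusted p = 1.52e-05, 7.76e-05 and 0.000535). Traj48 fell by 1.00 and Traj45 by 0.81 (limma adjusted p = 0.000203 and 0.00145). Traj47 differed by -0.40 ± 0.28 (limma, adjusted p = 0.192), and was called lower without WT replicate 1 at 24 h (-0.80, limma adjusted p = 0.0196). The median change was -0.96 over the 6 and 0.44 over the 43. The 5 members were called lower from the 8 tables too, where 27.9% of all segments were.

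The difference between the genotypes in this change was positive for all 6 members, from 0.24 ± 0.19 for Traj52 to 0.64 ± 0.24 for Traj45, and none passed over all 12 libraries. The limma adjusted p-values were 0.0752 for Traj45 and Traj48, and 0.211 to 0.325 for the other 4. Of the 6 members 2 had an unadjusted p under 0.05, beside 19 of all 43 segments. Of all 43 segments 23.3% were called higher and 6.98% lower in this test. KO and WT libraries were paired by replicate number because same-numbered libraries deviated together, not because a sample title states a pairing. That choice was made on the same shares that the block then tested, so the blocked p-values are not independent of it. With this block 5 of 6 members were called, all but Traj52. The limma adjusted p-values ran from 0.00385 for Traj45 to 0.0484 for Traj49 (48.8% of all segments called higher). The 8 tables called 2, Traj47 and Traj45 (0.61 and 0.63, limma adjusted p = 0.0403 and 0.0402; 37.2% called higher).

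Within the window Traj52 took a larger part and Traj48 a smaller one in KO cells at 24 h. Traj52 made up 22.8% and 25.4% of the 6 segments' summed share in KO at 24 h, against 19.0% and 20.2% in WT, and Traj48 17.0% in both KO libraries, against 20.0% and 22.0% in WT. Neither pair of ranges overlapped. Traj50, the other 5' member, made up 17.8% and 16.0% in KO, against 16.3% and 13.2% in WT, ranges that overlapped. Traj49 made up 21.9% and 23.2% in KO and 21.9% and 24.4% in WT, nearly the same range. At steady state Traj52 made up 18.9% and 19.0% in KO, against 17.7% in both WT libraries, and Traj48 17.6% in both KO libraries, against 19.7% and 18.9% in WT. Traj48 was therefore a smaller part of the window in KO than in WT at these 2 samplings, and at 48 h it made up 18.0% and 19.0% in KO, against 19.7% and 21.6% in WT. These parts are a description and were not tested.

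**Figure D3:**
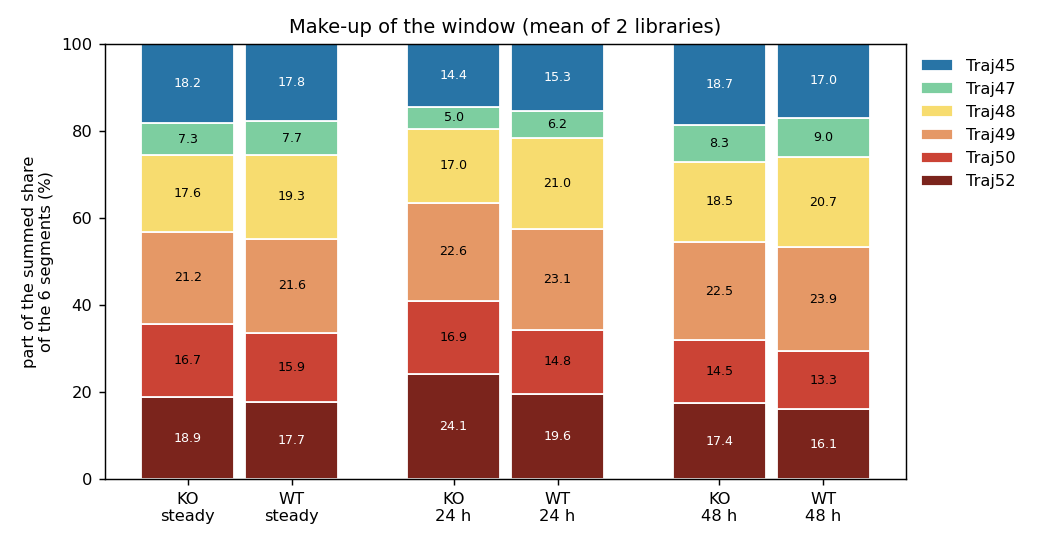
Part of the summed share of the 6 segments (%, y axis) that each segment took, mean of 2 libraries, by genotype and sampling (x axis). The bottom block, Traj52, is tallest in KO at 24 h, at 24.1%, against 19.6% in WT.

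Set against its 5' neighbours, the window took nearly the same proportion in both genotypes at steady state and different ones in the labelled cells. The summed share of the 6 members was 1.67 ± 0.0834 times that of Traj58 to Traj53 in KO and 1.65 ± 0.102 times in WT at steady state (SD, n = 2 each, as in the ratios that follow). At 24 h the ratio was 1.17 ± 0.200 in KO and 1.62 ± 0.0128 in WT, and at 48 h 2.05 ± 0.00938 in KO and 1.73 ± 0.0270 in WT. The KO and WT ranges of this ratio overlapped at steady state and were apart at 24 h, with KO lower, and at 48 h, with KO higher. Against the 3' neighbours Traj44 to Traj39 the ratio was 1.33 ± 0.0558 in KO and 1.24 ± 0.0249 in WT at steady state. It was 2.42 ± 0.175 in KO and 1.72 ± 0.0778 in WT at 24 h, and 1.24 ± 0.00406 in KO and 1.19 ± 0.0726 in WT at 48 h. KO lay above WT without overlap at all 3 samplings, at 48 h narrowly. No test was made on these ratios of chosen windows.

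Over the 12 libraries the summed share of the members was most like that of Traj53, Traj57 and Traj56, with Pearson correlations of log2 shares of 0.969, 0.943 and 0.929. These describe libraries that share their groups and, within a table, a fixed total. Member pairs correlated at 0.487 to 0.980 (15 pairs, median 0.851). Traj52 was most like its 5' neighbour Traj53 among non-members (0.987), whereas Traj47 was most like its 3' neighbour Traj44 (0.806) and Traj45 most like Traj42 (0.870).

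The Trav partners of each segment were placed along the chromosome by rank, from 1 for Trav1, farthest from the Traj array, to 84 for the nearest. Ranks follow positions in the reference genome, whereas the mice carried a TcrdCreER allele of strain 129 origin at this locus. Whether the order and number of Trav segments there match the reference was not tested. Trav9-3 had no position in the annotation and was left out; it held 0.620% to 2.01% of the members' summed share. At steady state the most 3' member had farther partners than the most 5' one. The mean partner rank was 55.4 and 55.1 for Traj52 in KO, against 54.7 and 54.8 in WT, and 52.5 and 51.7 for Traj45 in KO, against 52.1 and 51.5 in WT. In between the order was not even, since Traj47 averaged 53.3 in KO and 52.8 in WT, above Traj48 at 53.1 in KO and 52.5 in WT. The members as a whole averaged 53.9 ± 0.415 in KO and 53.5 ± 0.163 in WT, between Traj58 to Traj53 at 58.8 ± 0.216 and 58.3 ± 0.000132 and Traj44 to Traj39 at 49.2 ± 1.20 and 47.9 ± 0.946 (SD, n = 2 each). The 28 most distal Trav segments gave 17.0% and 17.2% of the members' partners in KO at steady state, and 18.2% in both WT libraries.

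Partner position of the 6 segments was not called different between KO and WT at any sampling. In limma on the mean rank, 0 of 6 members passed in any of the 3 samplings, and 0 of 6 had an unadjusted p under 0.05. Of all 43 segments 10, 3 and 20 had one at steady state, 24 h and 48 h. Of all 43 segments 9.30% were called for steady state, 0% for 24 h and 39.5% for 48 h, all toward nearer partners in KO. The differences for members ran from -0.15 for Traj50 to 0.58 ranks for Traj48 at steady state, from -0.56 for Traj47 to 0.69 for Traj48 at 24 h and from -1.46 for Traj50 to 3.01 for Traj45 at 48 h. The 95% interval for Traj45 at 48 h, -0.97 to 6.99 ranks, also holds differences as large as the median of 3.94 over all 43 segments, so the 48 h data do not separate Traj45 from the middle of the array. The interval for Traj50 at 48 h, -5.74 to 2.82 ranks, lies below that median. Its negative estimate rests on WT replicate 2, a table that sums to nearly 2. The mean ranks of Traj50 were 54.6 and 58.0 in KO (replicates 1 and 2), against 54.6 and 60.9 in WT. At steady state the intervals reached 4.13 to 4.45 ranks at their upper end, and the median over all segments was 2.71. The 8 tables alone also called 0 of 6 at each sampling, beside 9.30%, 0% and 16.3% of all segments.

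**Figure D4:**
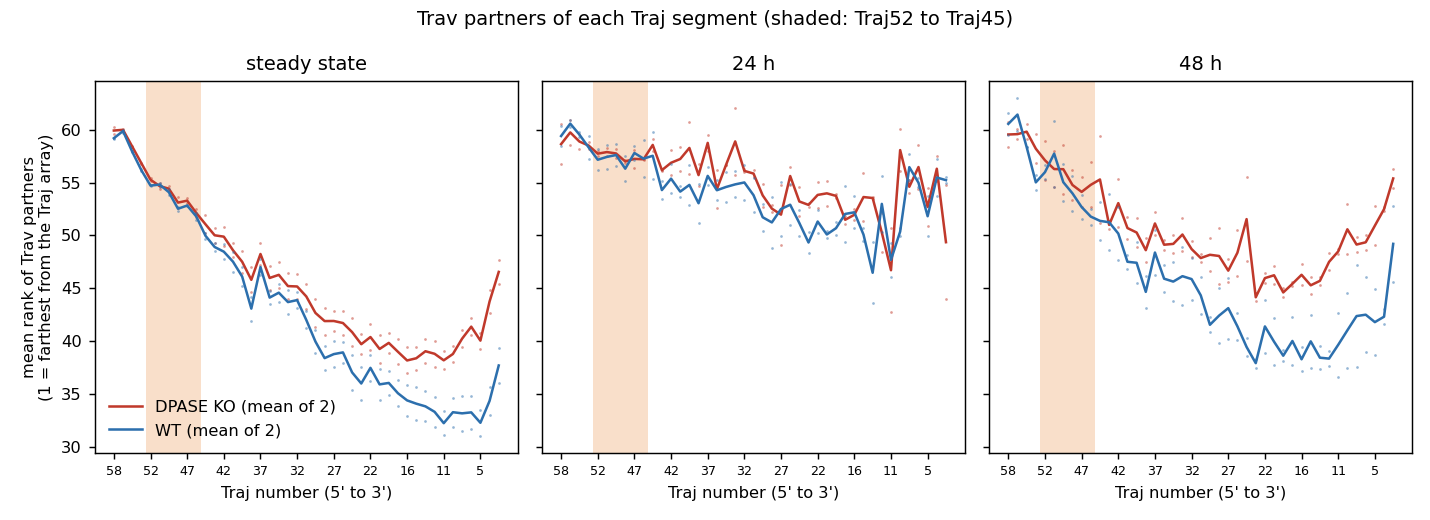
Mean rank of the Trav partners (y axis, 1 is farthest from the Traj array) of each Traj segment in order from 5' to 3' (x axis), at steady state, 24 h and 48 h. Lines are means of 2 libraries (KO red, WT blue), dots are libraries, and shading marks Traj52 to Traj45, where the lines lie close together at steady state and separate toward the 3' side.

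With time, Trav partners moved outward in WT over most of the array. The median rank change from 24 h to 48 h was -8.7 over the 43 segments and -2.5 over the 6 members. Of the members Traj47 and Traj45 were called lower. Traj47 had mean partner ranks of 57.1 and 58.5 at 24 h in WT and 51.6 and 53.8 at 48 h, and Traj45 had 55.5 and 59.0 at 24 h and 51.0 and 52.5 at 48 h. Neither pair of ranges overlapped. The mean rank of Traj47 fell by 5.11 ± 1.80 and that of Traj45 fell by 5.49 ± 1.91 (limma, adjusted p = 0.0142 and 0.0134), where 76.7% of all segments were called lower. Both calls were lost without WT replicate 2 at 24 h (limma adjusted p = 0.0956 for Traj47 and 0.170 for Traj45) or WT replicate 1 at 48 h (0.101 and 0.0628), and the 4 WT libraries fitted alone called neither (0.0655 and 0.0501). Traj48, also 3' of Traj49, differed by -2.34 (limma, adjusted p = 0.252). In KO the partner ranks of Traj47 and Traj45 differed by -3.12 and -2.41 between the times (limma, adjusted p = 0.146 and 0.296). There 0 of 6 members were called, beside 51.2% of all segments, and the median rank change was -1.9 over the 6 and -5.3 over the 43. From the 8 tables both were called in KO as well (-5.41 and -4.58, limma adjusted p = 0.0361 and 0.0373; 51.2% of all segments called lower), and in WT Traj49, Traj47 and Traj45 were called, beside 83.7%.

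Each member was joined to most of the Trav array. In the 8 tables a member was found with 76 to 83 Trav segments, and its most used partner took 3.89% to 6.37% of its share. In the other 4 tables the count was 38 to 74 and the top partner took 9.83% to 32.7%. The Trav partner with the highest mean share over the 12 libraries was Trav14-3 for Traj52, Traj49 and Traj45, Trav4-4-dv10 for Traj50 and Trav15-2-dv6-2 for Traj48 and Traj47. All 3 are among the 28 Trav segments nearest to the Traj array. For 4 of the members these top partners were not those of the other 8 tables. In the other 8, the top partner was Trav3-3 for Traj48 in 8 tables, for Traj47 in 5 and for Traj45 in 6, and Trav21-dv12 for Traj49 in 6. Trav4-4-dv10 led for Traj50 in 8 of these 8 and Trav14-3 for Traj52 in 6. Trav14-3 with Traj49 took 0.274% to 1.07% of the repertoire in the 4 and 0.0961% to 0.371% in the 8. Trav15-2-dv6-2 with Traj48 took 0.677% to 1.16% in the 4 and 0.0269% to 0.0878% in the 8. Trav4-4-dv10 with Traj50 took 0.113% to 0.545% in the 4 and 0.104% to 0.325% in the 8.

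At the level of single Trav-Traj pairs, the raised use of the window in KO at steady state was spread over partners. Of 474 pairs of a member with a Trav listed in all tables, both KO libraries exceeded both WT libraries in 322 and fell below both in 3, beside 31.5% and 28.2% of all 3397 pairs. Traj50 had the largest count, 65 of 79 pairs, then Traj52 with 62, Traj49 with 57, Traj45 with 55, Traj48 with 46 and Traj47 with 37. At 24 h 51 of 474 pairs lay above and 26 below (5.59% and 17.7% of all pairs), and at 48 h 141 above and 2 below (13.4% and 14.7%).

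In limma over all 12 libraries 0 of 474 member pairs passed in any of the 3 samplings, where 0.294%, 0% and 0% of all pairs were called. The member pairs with an unadjusted p under 0.05 numbered 1, 13 and 80 of 474, beside 211, 187 and 510 of all 3397 pairs. From the 4 steady-state libraries alone 32 of 474 were called, all higher in KO, where 1.62% of all pairs were called higher and 9.16% lower. Traj52 and Traj45 had 11 each, Traj50 7, Traj49 2, Traj47 1 and Traj48 0. By partner they were 6 of 150 pairs with the 28 most distal Trav segments, 11 of 162 with the 28 central ones and 15 of 156 with the 28 nearest ones. The largest changes were in pairs of Traj52 and Traj50. Trav3-4 with Traj52 took 0.115% and 0.0917% in KO, against 0.0561% and 0.0567% in WT (0.76 ± 0.14, limma adjusted p = 0.0343). Trav8-2 with Traj52 took 0.131% and 0.115% in KO, against 0.0749% and 0.0631% in WT (0.75 ± 0.14, limma adjusted p = 0.0338). Trav7-5 with Traj50 took 0.0794% and 0.0776% in KO, against 0.0475% and 0.0398% in WT (0.73 ± 0.12, limma adjusted p = 0.0281). These KO values were each above both WT values. Trav3-3 rose with both 5' members, by 0.71 ± 0.12 with Traj52 and 0.68 ± 0.11 with Traj50 (limma adjusted p = 0.0282 and 0.0279).

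At 48 h the 8 tables called 73 of 474 member pairs, all higher in KO (3.71% of all pairs called higher), and at 24 h 0, as over all pairs (0%), with 71 member pairs at an unadjusted p under 0.05. The lowest unadjusted p over all 12 libraries at 48 h was that of Trav12-2 with Traj48, which took 0.109% and 0.117% in KO, against 0.0529% and 0.0378% in WT (1.17 ± 0.24, limma adjusted p = 0.0718). Next was Trav4d-4 with Traj50, at 0.0213% and 0.0295% in KO, against 0.00794% and a listed 0 in WT (1.39 ± 0.30, limma adjusted p = 0.0815). Trav9d-4 with Traj47 followed at 0.0123% and 0.0147% in KO, against 0.00277% and a listed 0 in WT (1.06 ± 0.27, limma adjusted p = 0.140). At 24 h the 3 lowest were Trav6d-7 with Traj47 (-0.91 ± 0.31), Trav4-3 with Traj50 (0.80 ± 0.28) and Trav4-3 with Traj52 (0.63 ± 0.22), all with a limma adjusted p of 0.784. Trav segments with a d in the name have near-identical copies elsewhere in the array, named without the d, so the split of a share between copies is uncertain. This holds for both copies, and so also for Trav3-3, Trav7-5, Trav8-2 and Trav12-2. Trav12-2 with Traj45, Trav17 with Traj52 and Trav14d-3-dv8 with Traj52 had the lowest unadjusted p at steady state over all 12 libraries, with changes of 0.58 ± 0.25, 0.72 ± 0.31 and 0.43 ± 0.20 (limma adjusted p = 0.791, 0.824 and 0.887).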

How the data were processed

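The authors deposited 1 table per library that gives, per the file headers, the fraction of the Tcra repertoire for each pair of a Trav row and a Traj column. For the aligner, the build and the unit counted (reads, molecules or clonotypes), the entry is: not given in the sources used here. Depth is unknown, so precision rests on the spread between libraries. Blank rows were dropped. Each table was divided by its own total, since 4 tables sum to nearly 2, and fractions became percents.

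Shares were tested with limma 3.58.1 (R 4.3.3) on log2(percent + 0.01), with 1 mean per group over all 12 libraries, 1 shared spread (6 residual degrees of freedom) and Benjamini-Hochberg adjustment at 0.05 over all 43 Traj segments, or over the 3397 pairs listed in all tables. The usage-weighted mean rank of Trav partners was tested the same way without logs. The code was checked on simulated data. Positions and sequences came from GENCODE M21 (GRCm38), and that of Trav13-5 from RefSeq. Replicate numbers come from the sample titles. Same-numbered KO and WT libraries deviated together (over 43 segments r was 0.948 for the steady-state pair, 0.666 for 24 h and 0.415 for 48 h). The numbers were therefore taken to pair them, and blocked values are given where they change a call. Blocked p-values are not independent of this choice, since it was made on the same shares. At 24 h and 48 h replicate 2 is also the table that sums to nearly 2 in both genotypes. Pairing and kind of table cannot be told apart there. Alternatives were the block, each library left out, the 8 tables, a common Trav list, only a contrast's own libraries, pseudocounts of 0.001 and 0.1, centring, a variance trend, a pair filter of 0.01% and the distal partner share. All 6 members are named in every comparison; other segments appear as windows, as flanking segments or as the 3 most alike; pairs are each member's top partner and the 5 largest changes called, or the 3 lowest p-values. Members, lists and the naming rule were chosen with earlier results of these data known. Figures were drawn with matplotlib 3.10.9.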

Additional observations from a re-analysis of the deposited data

Results flagged for a closer look

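The change in share between 24 h and 48 h differed between KO and WT for 5 of the 6 members in the test of that difference with the replicate number as a block. The log2 differences, KO minus WT, were 0.64 for Traj45, 0.59 for Traj47, 0.57 for Traj48, 0.37 for Traj49 and 0.35 for Traj50. Without the block none of these 5 was called (limma adjusted p = 0.0752 to 0.242), and the block was itself chosen from the spread of these same shares. With the block 48.8% of all 43 segments were called higher, among them 5 of 5 of Traj44 to Traj39 and 7 of 7 of Traj38 to Traj31.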

How the results depend on the processing

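Beside the 2 members called higher in KO at steady state, 6 were called with the replicate block, from the 8 tables and from the steady-state libraries alone, and 4 on the centred scale and with a variance trend. At 24 h, 0 were called from the 24 h libraries alone and 4 on the centred scale, beside 2. For the difference between genotypes in the change over time, 5 were called with the block, and 2 from the 8 tables and with a variance trend, beside 0. For partner position over time, the 8 tables called 2 in KO, and in WT the contrast's own libraries called 0 and the distal partner share 1. Member pairs called were 32 at steady state, 73 at 48 h and 185 for the mean of samplings from the 8 tables, 32 from the steady-state libraries alone, 4 for the mean with the block, and 1 at 48 h and 7 for the mean with the pseudocount of 0.1, each beside 0. The 8 tables gave summed differences of 6.60 points at 24 h and 9.46 at 48 h. The cause of these shifts was not tested. At steady state the block and the steady-state libraries alone each called 34.9% of all segments higher, and the centred scale 25.6%. The centred scale called 18.6% higher at 24 h, and the block 48.8% for the change over time. The steady-state libraries alone called 1.62% of all pairs higher. Counts here and in the next paragraph without a share over all segments or pairs describe the processing, not a trait of the members. The block also called 6 beside 5 at 48 h and for the mean of samplings, and changed no other count of members or member pairs called.

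Leaving out 1 library at a time, members called numbered 0 to 3 at steady state, 0 to 2 at 24 h, 3 to 5 at 48 h, 4 to 6 for the mean, 2 to 4 over time in KO, 5 to 6 over time in WT and 0 to 1 for the difference. Members called for partner position over time in WT numbered 0 to 2. Member pairs called numbered 0 to 29 at 48 h and 0 to 17 for the mean. Summed differences were 4.50 to 6.77 points at steady state, 3.18 to 6.20 at 24 h and 7.63 to 9.45 at 48 h.

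Signs that turned belong to members that had not been called. Between KO and WT at 24 h, Traj48 was 0.053 from the 8 tables, 0.44 centred and -0.23 to 0.039 with a library left out, Traj47 was 0.10, 0.46 and -0.47 to 0.32, and Traj45 was -0.087 to 0.34 with a library left out. Over time in KO, Traj47 was -0.64 centred and -0.032 to 0.42 with a library left out, and Traj45 -0.38 to 0.044. Partner ranks at 24 h were 0.966 for Traj47 and 1.76 for Traj45 from the 8 tables. At 48 h Traj52 was -0.0791, and over time in WT Traj50 was -1.68. With a library left out they were -0.404 to 1.55 (Traj52), -0.674 to 1.59 (Traj50), -0.936 to 1.23 (Traj49), -0.488 to 1.86 (Traj48), -1.41 to 0.291 (Traj47) and -1.84 to 1.71 (Traj45) at 24 h. At 48 h they were -0.751 to 2.99 (Traj52), -4.58 to 1.66 (Traj50), -1.07 to 3.53 (Traj49), -0.885 to 2.47 (Traj48) and -0.00291 to 2.87 (Traj47). At steady state Traj50 was -0.401 to 0.102 and Traj45 -0.0584 to 0.723. Over time they were -2.50 to 1.24 (Traj52), -3.28 to 0.0593 (Traj50) and -3.79 to 0.811 (Traj49) in KO and -2.81 to 3.43 (Traj50) in WT. The depth behind the fractions is unknown, which limits statements on rare pairs.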
